A study of Mus musculus with 4 samples.

Results

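Hpse Pdyn cells are cortical somatostatin (SST) interneurons that hold transcripts of both Hpse and Pdyn. They were picked from single-cell RNA counts by a rule on 6 genes: a barcode needed at least 2000 unique molecular identifiers (UMIs, 1 per captured transcript), under 25% of them from mitochondrial genes, at least 3 Sst UMIs, at least 1 Hpse UMI, at least 3 Pdyn UMIs, no Calb2 UMI and under 3 UMIs of Nos1 and Chodl together. The rule took 268 of 2611 barcodes, and 2051 barcodes passed the filters on depth, mitochondrial share and Sst, leaving 1783 other SST barcodes for comparison. The cells were sorted from somatosensory cortex of mice that carry SST-IRES-Cre, the Cre-dependent Ai9 LSL-tdTomato reporter and the X94-GFP transgene (a Gad1-EGFP insertion) on a Crl:CD1(ICR) background. The 4 libraries were GFP+/tdTomato+ cells at postnatal day 97 (P97), tdTomato+ cells at P97 sorted irrespective of GFP from the same dissociated tissue of 6 pooled mice, and tdTomato+ cells from 2 other batches at P45 (replicates 1 and 2), for which no number of mice is stated. The tdTomato label marks cells with a history of Sst promoter activity, and X94-GFP marks a subset of SST cells chosen by the insertion site of its transgene, so the GFP+/tdTomato+ library is a selected sample. Every mouse carried all 3 transgenes, so no library lacks them.

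SST interneurons are inhibitory cells that release GABA, mostly onto dendrites. Martinotti cells, the best known kind, send axons to layer 1, whereas non-Martinotti cells, which the X94 line labels, arborize mainly in layer 4 and fire in a quasi-fast-spiking way. Hpse encodes heparanase, the enzyme that cleaves heparan sulfate chains of the extracellular matrix, and Pdyn encodes prodynorphin, the precursor of the dynorphin peptides that act on kappa opioid receptors. Calb2 (calretinin) is found in many Martinotti cells, and Nos1 and Chodl mark long-range SST cells, which the rule left out.

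The GFP+/tdTomato+ library held 105 Hpse Pdyn cells, the P97 tdTomato+ library 65, P45 replicate 1 held 42 and P45 replicate 2 held 56. Their median depth was 18140 UMIs in the GFP+/tdTomato+ library and 12520, 9197 and 7930.5 UMIs in the tdTomato+ libraries, in the order P97, P45 replicate 1 and P45 replicate 2 that is kept for every trio of values here. The other SST barcodes were shallower in each library, with medians of 14841 UMIs in the GFP+/tdTomato+ library and 7363.5, 4959 and 5997 UMIs in the tdTomato+ libraries. Since a cell has to show a Hpse UMI to be counted, deeper cells were favoured by the rule. Only 5 barcode sequences occurred in more than 1 library.

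Hpse Pdyn cells made up 56.5% of SST barcodes in the GFP+/tdTomato+ library (105 of 186, exact Clopper-Pearson 95% interval 49.0 to 63.7%), against 11.8% in the P97 tdTomato+ library of the same mice (65 of 553, interval 9.19 to 14.7%). In the P45 libraries the shares were 6.30% (42 of 667, interval 4.58 to 8.42%) and 8.68% (56 of 645, interval 6.62 to 11.1%), and over the 3 tdTomato+ libraries they averaged 8.91% ± 2.74 (SD, n = 3). The GFP+/tdTomato+ interval lay above the others, also among barcodes of 5000 to 15000 UMIs, where the shares were 50.8% (33 of 65) in the GFP+/tdTomato+ library and 11.9%, 10.5% and 12.5% in the tdTomato+ libraries. In that depth window the 3 tdTomato+ libraries differed by less than their intervals. After thinning each barcode to 2000 UMIs the shares were 7.56%, with 2.68%, 0.966% and 2.63% in the tdTomato+ libraries, so the absolute share depends on depth. The thinned GFP+/tdTomato+ interval (4.09 to 12.6%) overlapped those of the P97 library (1.43 to 4.54%) and of P45 replicate 2 (1.48 to 4.30%). Intervals cover counting error only, and with 1 GFP+/tdTomato+ library the difference between the sorts was not tested.

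**Figure D1:**
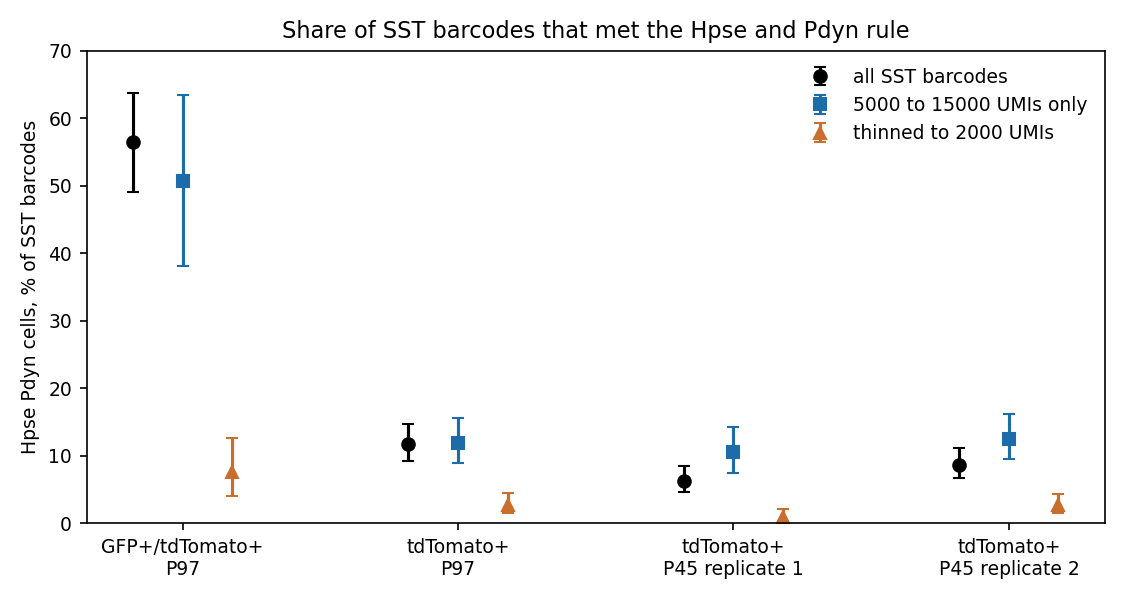
Share of SST barcodes that are Hpse Pdyn cells (y axis, percent) in each library (x axis), for all barcodes, for barcodes of 5000 to 15000 UMIs and after thinning to 2000 UMIs, with exact 95% intervals as bars. The GFP+/tdTomato+ library is at 56.5% and the tdTomato+ libraries lie between 6.30% and 11.8% for all SST barcodes.

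The genes of the rule are given as a description, since they chose the cells. Levels are CPM, the UMIs of a gene summed over a group of cells and scaled to the group's total UMIs. Hpse, on chromosome 5 of GRCm38 (100679484 to 100719716, minus strand), was at 220 CPM in the GFP+/tdTomato+ Hpse Pdyn cells and at 204, 237 and 306 CPM in the tdTomato+ ones. Most of them held few copies, with a median of 3 Hpse UMIs per cell in the GFP+/tdTomato+ library and 2, 1 and 2 in the tdTomato+ libraries. In the tdTomato+ libraries 72 of 163 Hpse Pdyn cells had exactly 1 Hpse UMI, and 91 had at least 2. Among other SST barcodes of these libraries 3.17% held a Hpse UMI, against 1.92% of 104 excitatory-like barcodes (at least 3 Slc17a7 UMIs and under 3 Sst UMIs), which should lack it. The median depths were 5932.5 UMIs for the other SST barcodes and 7428 UMIs for the excitatory-like ones.

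Pdyn, on chromosome 2 (129686565 to 129699844, minus strand), was at 1119 CPM in the GFP+/tdTomato+ Hpse Pdyn cells and at 1333, 1122 and 1781 CPM in the tdTomato+ ones. Other SST barcodes were not free of it, at 462 CPM in the GFP+/tdTomato+ library and 254, 280 and 317 CPM in the tdTomato+ libraries. A Pdyn UMI was seen in 37.4% of the other SST barcodes and in 9.62% of the excitatory-like barcodes. Sst itself was at 5685 CPM in GFP+/tdTomato+ Hpse Pdyn cells and 3612, 5769 and 3727 CPM in tdTomato+ ones, against 6176 CPM in GFP+/tdTomato+ other barcodes and 5014, 8759 and 5580 CPM in tdTomato+ ones. Just outside the rule lay 12 tdTomato+ barcodes with Hpse and 2 Pdyn UMIs, whose mean was 263 CPM of Hpse and 292 CPM of Pdyn, and just inside it 15 Hpse Pdyn cells with exactly 3 Pdyn UMIs, at 182 CPM of Hpse and 321 CPM of Pdyn.

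Npnt, Cdh7 and Prdm1 were named as markers of these cells from earlier results on the same data, so their values are also a description. Npnt encodes nephronectin, an extracellular matrix ligand of integrins. It was at 239 CPM in GFP+/tdTomato+ Hpse Pdyn cells, against 73.8 CPM in the other barcodes of that library, and at 296, 257 and 285 CPM in tdTomato+ Hpse Pdyn cells, against 40.1, 28.1 and 42.1 CPM in the others. Cdh7, a type II cadherin, was at 231 CPM in GFP+/tdTomato+ Hpse Pdyn cells and 160 CPM in the others there, and at 181, 178 and 254 CPM in tdTomato+ Hpse Pdyn cells, against 51.0, 50.1 and 58.7 CPM. Prdm1, a zinc finger repressor known as Blimp1 in lymphocytes, was at 75.2 CPM in GFP+/tdTomato+ Hpse Pdyn cells and 36.5 CPM in the others, and at 82.0, 86.5 and 78.6 CPM in tdTomato+ ones, against 27.3, 20.1 and 23.3 CPM. For all 3 markers the tdTomato+ groups did not overlap, but the share of all tested genes without overlap is not given here.

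With each cell thinned to 3000 UMIs, at least 1 of these 3 markers was seen in 72.4% of GFP+/tdTomato+ Hpse Pdyn cells, against 53.2% of the other SST barcodes there. In the tdTomato+ libraries this share was 79.7%, 78.6% and 87.5% of Hpse Pdyn cells, against 26.5%, 20.8% and 23.0% of the others. None of the 3 was seen in 29 of 105 thinned GFP+/tdTomato+ cells and in 13, 9 and 7 of the tdTomato+ ones. Since the markers were taken from the same data, these shares are no independent check of the label. Of 7 interneuron identity genes tested (Gad1, Gad2, Slc32a1, Lhx6, Sox6, Satb1 and Elfn1), Elfn1, which sets facilitating excitatory input onto SST cells, was higher in Hpse Pdyn cells (log2 fold change 0.41, SE 0.10, adjusted p = 0.00439 from edgeR) and none was lower. The Elfn1 call was lost without P45 replicate 2 (adjusted p = 0.110), with DESeq2 (0.0592) and without the library block (0.113).

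To ask what else sets Hpse Pdyn cells apart, UMIs were summed over Hpse Pdyn cells and over the other SST barcodes of each tdTomato+ library and compared within library by edgeR's quasi-likelihood test with Benjamini-Hochberg adjustment (n = 3 libraries, the genes of the rule left out). Of 10642 genes tested, 577 were higher (5.42%) and 622 lower (5.84%) in Hpse Pdyn cells, together 1199 or 11.3%. The counts given below for lists of genes are to be read beside these shares, and no list was tested as a set. The cells were split on genes measured in the same cells, so genes that vary along with Hpse and Pdyn are favoured. Barcodes that the rule left out by Calb2 or by Nos1 and Chodl stayed among the others. Genes high in those barcodes are thus favoured among the lower ones. Without the library block the count was 628. The direction was the same in all 4 libraries for 465 of the 577 higher genes and 520 of the 622 lower ones. This includes the GFP+/tdTomato+ library, which the test did not use. That library shares its mice and dissociated tissue with the P97 tdTomato+ library and was split by the same rule. It is thus no independent check, and the share over all genes tested is not given here. The median log2 fold change over all genes tested was 0.00 after TMM scaling, which centres the fold changes.

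**Figure D2:**
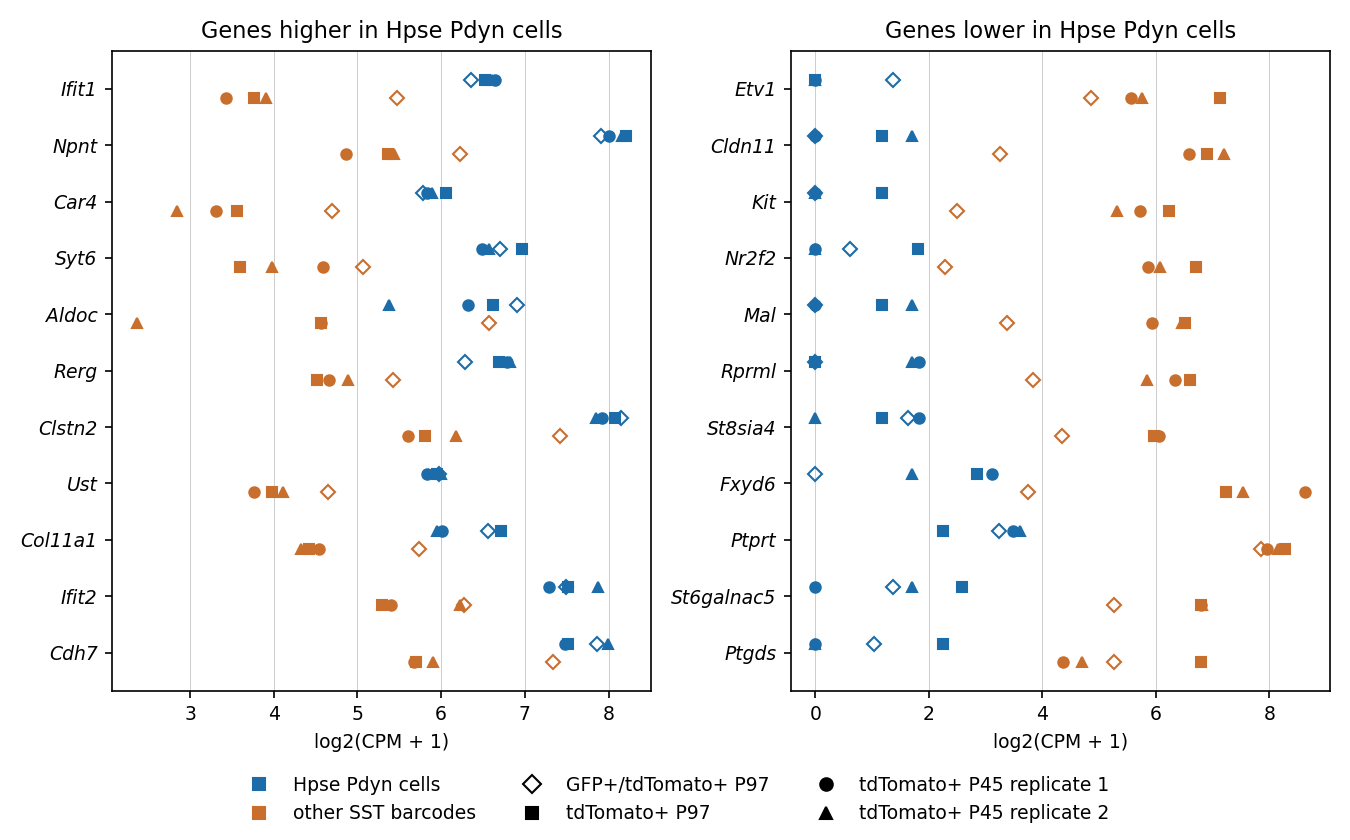
Levels, as log2(CPM + 1), of genes with the largest fold changes up (left) and down (right) that passed the test and went the same way in all 4 libraries. Each point is the summed cells of 1 library, blue for Hpse Pdyn cells and orange for other SST barcodes. Ifit1, at 90.7 to 99.2 CPM in tdTomato+ Hpse Pdyn cells, lies apart from the other barcodes at 9.75 to 14.0 CPM.

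Ifit1 had the largest rise of the genes plotted. This gene encodes an interferon-induced protein that binds viral RNA. Ifit1 was at 90.7, 99.2 and 96.6 CPM in tdTomato+ Hpse Pdyn cells, against 12.6, 9.75 and 14.0 CPM in other SST barcodes, and 81.0 against 43.5 CPM in the GFP+/tdTomato+ library. The log2 fold change was 2.999 (SE 0.19, adjusted p = 6.91e-15 from edgeR). An Ifit1 UMI was found in 49.1% of 163 tdTomato+ Hpse Pdyn cells and in 6.46% of 1702 other SST barcodes. This and the later shares of cells with a UMI are without thinning. The Hpse Pdyn cells were deeper (median 9188 against 5932.5 UMIs), and the part of depth in these shares was not tested. Its neighbour Ifit2 was at 183, 155 and 234 CPM in tdTomato+ Hpse Pdyn cells, against 38.2, 41.2 and 73.9 CPM in the others (log2 fold change 1.98, SE 0.13, adjusted p = 2.42e-14 from edgeR). Ifit3 was at 21.1, 63.6 and 74.1 CPM in Hpse Pdyn cells, against 8.37, 17.5 and 21.7 CPM (log2 fold change 1.73, SE 0.23, adjusted p = 4.55e-07). It was higher within each of the 4 libraries, although across the tdTomato+ libraries its groups overlap.

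Of 18 interferon-response genes listed, 8 had enough UMIs to be tested, and these 3 were higher. B2m, the light chain of MHC class I molecules, was lower, at 17.4, 25.4 and 11.2 CPM in Hpse Pdyn cells against 30.8, 58.2 and 32.8 CPM in other SST barcodes (log2 fold change -1.07, adjusted p = 0.00236 from edgeR). That call was lost without P45 replicate 2 (adjusted p = 0.0527 from edgeR). Irf9, part of the complex that carries interferon signals to the promoter, was also lower (log2 fold change -1.89, adjusted p = 0.0491), a gene chosen here after its value was seen. The Irf9 call was lost on leaving out any 1 library, with adjusted p of 0.0979 without P97, 0.0764 without P45 replicate 1 and 0.243 without P45 replicate 2. The median of the 8 was 0.15, beside 0.00 over all genes. The 3 Ifit genes lie together on chromosome 19, Ifit2 at 34550694 to 34576419, Ifit3 at 34583531 to 34588731 and Ifit1 at 34640871 to 34650009.

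Because these 3 genes rose together, their promoters (RefSeq, GRCm38.p6, 250 bases before to 50 after each start) were searched on both strands for the core of the interferon-stimulated response element, allowing any base at its 2 middle positions. The motif was found on the strand opposite to the gene in the promoters of Ifit1 and Ifit3, 2 times in each and without overlap, and in neither of the 2 Ifit2 entries. It occurs in 1131 of 32851 promoters of this length (3.44%). The stretches that hold it are shown 5′ to 3′ on the plus strand, which is the strand of both genes, with the matches in capitals. The match is a description and not a measured binding site.
Ifit1, chr19:34640755-34640843: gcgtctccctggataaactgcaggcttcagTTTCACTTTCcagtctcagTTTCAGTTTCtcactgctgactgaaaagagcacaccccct
Ifit3, chr19:34583343-34583446: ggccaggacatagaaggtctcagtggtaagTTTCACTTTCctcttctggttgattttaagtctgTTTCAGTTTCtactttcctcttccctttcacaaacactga

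Genes of the synapse and of axon calibre were among those that rose. Cplx2, complexin 2, which clamps and promotes fusion of synaptic vesicles, was at 1413, 1722 and 1981 CPM in tdTomato+ Hpse Pdyn cells, against 431, 511 and 587 CPM in other SST barcodes (log2 fold change 1.78, SE 0.09, adjusted p = 3.71e-18 from edgeR). Every Hpse Pdyn cell of these libraries held a Cplx2 UMI, as did 81.2% of the others. Syt6, a synaptotagmin, was at 124, 89.0 and 94.4 CPM in Hpse Pdyn cells and 11.1, 23.1 and 14.7 CPM in the others (log2 fold change 2.79, SE 0.20, adjusted p = 1.99e-13). Of the 17 genes of GABA synthesis and release, all tested, 5 were higher and 2 lower, with a median of 0.08. The lower ones were Syt13, an atypical synaptotagmin, with 60.9, 94.1 and 69.6 CPM in Hpse Pdyn cells against 220, 182 and 174 CPM, and Rab3c, a vesicle GTPase, with 209, 175 and 238 CPM against 457, 434 and 416 CPM. Gad1 was not among the called genes (1003, 959 and 1220 CPM in Hpse Pdyn cells, 1044, 1236 and 1103 CPM in the others).

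The list of genes linked to fast spiking held 18 genes, all tested, of which 12 were higher and 3 lower, with a median log2 fold change of 0.53. With the GFP+/tdTomato+ library in the fit, 8 were higher and 3 lower, with a median of 0.21. The summed level of the list in that library was 6531 CPM in Hpse Pdyn cells and 7580 CPM in the others. It was higher in Hpse Pdyn cells in the tdTomato+ libraries, at 6279, 5725 and 5315 CPM against 5246, 3957 and 4393 CPM. Without the library block 7 were higher and 2 lower, and without P45 replicate 1 the counts were 8 and 3. The neurofilament genes, whose products set axon calibre, moved together. Nefl was at 177, 196 and 148 CPM in tdTomato+ Hpse Pdyn cells and 86.4, 65.7 and 58.4 CPM in other SST barcodes. Nefm was at 64.6, 73.8 and 44.9 CPM in Hpse Pdyn cells and 26.6, 18.4 and 13.2 CPM in the others. For Nefh the levels were 124, 178 and 106 CPM in Hpse Pdyn cells, against 54.9, 42.1 and 49.4 CPM. Their log2 fold changes over the tdTomato+ libraries were 1.31 for Nefl, 1.64 for Nefm and 1.47 for Nefh. The gap was narrower in the GFP+/tdTomato+ library, with 173 against 145 CPM for Nefl, 80.4 against 64.5 CPM for Nefm and 190 against 174 CPM for Nefh.

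Kcna1, a Kv1 potassium channel gene that limits repetitive firing near threshold, was at 257, 160 and 195 CPM in tdTomato+ Hpse Pdyn cells, against 125, 76.9 and 94.3 CPM in the others (log2 fold change 1.09, SE 0.11, adjusted p = 1.95e-09 from edgeR). Among GFP+/tdTomato+ cells it went the other way, with 256 CPM in Hpse Pdyn cells and 294 CPM in the others. Pvalb, the parvalbumin gene of fast-spiking basket cells, did not pass the test, with 341, 239 and 144 CPM in Hpse Pdyn cells and 288, 125 and 161 CPM in the others (adjusted p = 0.0526 from edgeR). Kcnc2, which encodes Kv3.2 and was one of the lower genes of this list, was at 272, 292 and 292 CPM in Hpse Pdyn cells against 373, 399 and 461 CPM. Within 5000 to 15000 UMIs, 9 of 17 tested genes of the list were higher and 3 lower.

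Other potassium channel genes were mixed, with 4 higher and 2 lower of 22 tested and a median of 0.07. Over all genes tested 5.42% were higher and 5.84% lower. Kcnk2, the TREK1 leak channel, was at 312, 397 and 416 CPM in Hpse Pdyn cells and 110, 187 and 172 CPM in the others (log2 fold change 1.33, SE 0.10). Kcnj3, a GIRK subunit opened by inhibitory G protein-coupled receptors, was higher by a smaller step (log2 fold change 0.75, SE 0.13, adjusted p = 7.34e-05 from edgeR). In the GFP+/tdTomato+ library Kcnj3 was at 134 CPM in Hpse Pdyn cells and 127 CPM in the others, and Kcnk2 at 314 and 211 CPM. Kcnip4, an auxiliary subunit of Kv4 channels, was lower, with 13.7, 15.3 and 27.0 CPM in Hpse Pdyn cells against 32.0, 26.7 and 61.5 CPM, but without P45 replicate 2 it no longer passed (adjusted p = 0.0826).

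**Figure D3:**
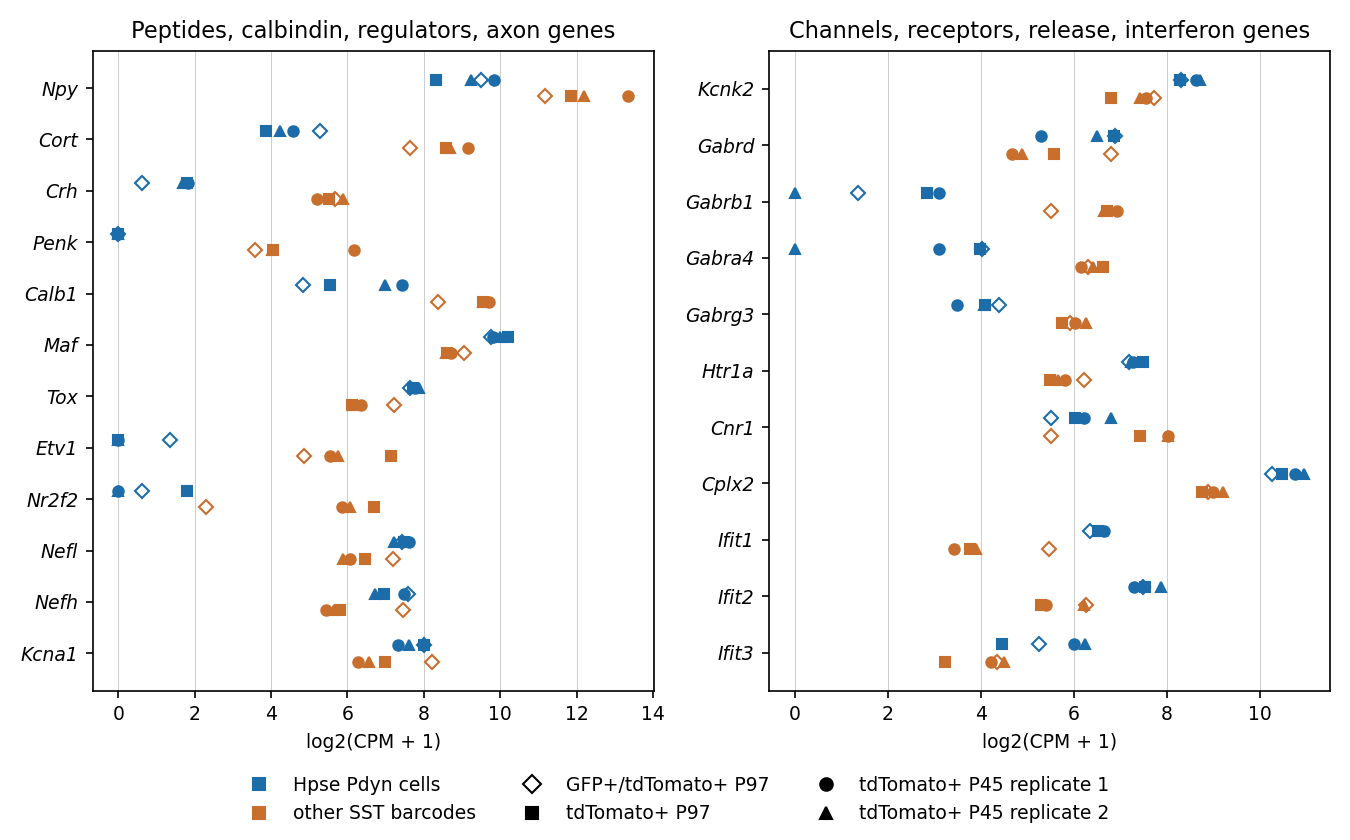
Levels, as log2(CPM + 1), of peptide, calbindin, transcription factor and axon genes (left) and of channel, receptor, release and interferon genes (right). Points are libraries, blue for Hpse Pdyn cells and orange for other SST barcodes. Npy, Cort, Calb1 and Gabrb1 are lower in Hpse Pdyn cells of every library and Maf, Cplx2 and Htr1a higher.

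Of 21 neuropeptide genes listed, Sst and Pdyn belong to the rule and 11 could be tested, of which 10 were lower and none higher, with a median log2 fold change of -3.88. The others include the barcodes left out by Calb2 or by Nos1 and Chodl, and had 74.8, 367 and 108 CPM of Nos1. The part of those barcodes in the falls was not tested. Npy, neuropeptide Y, was at 319, 913 and 602 CPM in tdTomato+ Hpse Pdyn cells, against 3700, 10426 and 4650 CPM in other SST barcodes (log2 fold change -3.30, SE 0.11, adjusted p = 7.16e-24 from edgeR). Without thinning, its UMIs were seen in 79.8% of the deeper Hpse Pdyn cells and 81.4% of the others. Cort, cortistatin, a peptide related to somatostatin, was at 13.7, 22.9 and 17.97 CPM in Hpse Pdyn cells, against 384, 567 and 412 CPM (log2 fold change -4.63, SE 0.18). Crh, corticotropin-releasing hormone, was at 2.49, 2.54 and 2.25 CPM, against 44.6, 35.7 and 58.2 CPM (log2 fold change -4.17, SE 0.40). In the GFP+/tdTomato+ library Npy was at 719 CPM in Hpse Pdyn cells and 2329 CPM in the others, and Cort at 37.8 and 198 CPM.

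Penk, the proenkephalin gene and the other main opioid precursor of this tissue, gave no UMI in the 163 tdTomato+ Hpse Pdyn cells or in the 105 GFP+/tdTomato+ ones. Taking 3 UMIs over the 163 cells as the limit that a count of 0 allows (1.83 CPM), Penk was at least 18.01-fold lower than in the other SST barcodes, which had 15.5, 71.6 and 15.2 CPM. The bound fell to at least 6.41-fold without P45 replicate 1 and to at least 11.8-fold without the P97 library. It passed the test with the library block (adjusted p = 9.73e-09 from edgeR) and not without it (adjusted p = 0.0799). It was also the only one of 5 tested opioid peptide and receptor genes that was called. Oprk1, the kappa opioid receptor at which dynorphin acts, was at 19.9, 38.2 and 4.49 CPM in Hpse Pdyn cells and 13.0, 14.5 and 11.6 CPM in the others (adjusted p = 0.248).

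Heparan sulfate is the substrate of heparanase, and genes that build or carry it were split. Of 34 listed, Hpse is in the rule and 20 were tested, with 3 higher, 5 lower and a median of -0.34. Hs3st1, a sulfotransferase that adds 3-O-sulfate groups to heparan sulfate, was at 44.8, 76.3 and 76.4 CPM in tdTomato+ Hpse Pdyn cells, against 23.6, 29.2 and 20.2 CPM in the others (log2 fold change 1.41, SE 0.20, adjusted p = 1.40e-06 from edgeR). Hs6st1, a 6-O-sulfotransferase, was at 60.9, 56.0 and 56.2 CPM, against 44.1, 40.7 and 32.3 CPM (log2 fold change 0.59, adjusted p = 0.0198). Sdc2, the syndecan 2 core protein, was lower (8.70, 15.3 and 15.7 CPM against 24.4, 32.3 and 30.2 CPM, adjusted p = 0.00657), as was Ndst3, with 1 UMI in Hpse Pdyn cells. Its level there was 0.0806 times that of the others, with an exact interval of 0.00202 to 0.461 from the counts. Within 5000 to 15000 UMIs only 1 of 19 tested genes of this list was higher and none lower (edgeR), and Hs6st1 (adjusted p = 0.297) and Sdc2 (0.0684) were not called. Hs6st1 was also lost without the P97 library (adjusted p = 0.107) and without P45 replicate 2 (0.166), and Sdc2 likewise (0.111 and 0.0550). Ndst3 was lost without the P97 library (0.159) or P45 replicate 1 (0.0802). Ust, a uronyl 2-O-sulfotransferase of chondroitin and dermatan sulfate that was on no list, was at 60.9, 56.0 and 62.9 CPM in Hpse Pdyn cells and 14.8, 12.5 and 16.3 CPM in the others (log2 fold change 2.08, SE 0.21).

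Perineuronal net genes gave 2 higher and 2 lower of 5 tested. Hapln1, a link protein that ties hyaluronan to proteoglycans, was at 34.8, 25.4 and 17.97 CPM in tdTomato+ Hpse Pdyn cells, against 4.68, 13.1 and 8.79 CPM in the others (log2 fold change 1.78, adjusted p = 0.000188 from edgeR). Without the P97 library it was not called (log2 fold change 1.01, adjusted p = 0.174). Hapln4, a related link protein, was higher within each library although its groups overlap (215, 94.1 and 121 CPM in Hpse Pdyn cells, 136, 63.5 and 72.9 CPM in the others). Both gaps were narrow in the GFP+/tdTomato+ library, with 26.8 against 26.4 CPM for Hapln1 and 239 against 233 CPM for Hapln4. Ncan, neurocan, and Tnr, tenascin R, were lower (adjusted p = 0.00127 and 0.0373). Ncan was lost without the P97 library (adjusted p = 0.127) and with all 4 libraries (0.129). In the GFP+/tdTomato+ library it was at 40.5 CPM in Hpse Pdyn cells and 32.6 CPM in the others. Tnr was lost on leaving out any 1 library, with adjusted p of 0.350, 0.0986 and 0.0759.

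Of 12 GABA-A receptor subunits tested, 5 were lower and 1 higher, with a median of -0.56. Gabrb1, the beta1 subunit, was at 6.22, 7.63 and 0 CPM in tdTomato+ Hpse Pdyn cells, against 105, 121 and 99.2 CPM in the others (log2 fold change -4.40, SE 0.30, adjusted p = 4.92e-14 from edgeR). Gabra4, the alpha4 subunit, was at 14.9, 7.63 and 0 CPM against 97.5, 70.7 and 84.3 CPM (log2 fold change -3.22, SE 0.29, and -4.39 without the P97 library), and Gabrg3, the gamma3 subunit, at 16.2, 10.2 and 15.7 CPM against 52.9, 64.6 and 76.2 CPM. Gabrd, the delta subunit of extrasynaptic receptors, which often pairs with alpha4 elsewhere in the forebrain, was higher in each library (log2 fold change 1.34, SE 0.17), at 116, 38.2 and 89.9 CPM against 47.0, 24.5 and 28.4 CPM, with overlapping groups. In the GFP+/tdTomato+ library the Gabrd gap was narrow, with 117 CPM in Hpse Pdyn cells and 110 CPM in the others.

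Of 20 glutamate receptor genes tested, 5 were higher and 4 lower, beside 5.42% higher and 5.84% lower over all genes tested. Grm4, a presynaptic metabotropic receptor, was at 58.4, 50.9 and 65.1 CPM in tdTomato+ Hpse Pdyn cells against 21.2, 29.5 and 21.7 CPM in other SST barcodes (log2 fold change 1.35, SE 0.20), and Grin2a, the NMDA receptor subunit GluN2A, at 549, 654 and 753 CPM against 338, 382 and 428 CPM (log2 fold change 0.80, SE 0.09). Neto2, an auxiliary subunit of kainate receptors, was also higher (log2 fold change 0.62). Grm5, which encodes the receptor mGluR5, was lower, at 119, 99.2 and 89.9 CPM against 251, 289 and 284 CPM (log2 fold change -1.32, SE 0.13). In the GFP+/tdTomato+ library the levels were 56.8 against 53.6 CPM for Grm4 and 576 against 528 CPM for Grin2a. There Neto2 was at 433 against 388 CPM and Grm5 at 87.8 against 208 CPM.

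Receptors for neuromodulators gave 5 higher and 4 lower of 16 tested. Htr1a, an inhibitory serotonin receptor, was at 178, 153 and 148 CPM in tdTomato+ Hpse Pdyn cells and 43.8, 55.4 and 49.9 CPM in the others (log2 fold change 1.76, SE 0.14, adjusted p = 1.28e-12 from edgeR), with 144 and 73.8 CPM in the GFP+/tdTomato+ library. Chrm3, the M3 muscarinic receptor, was at 134, 117 and 108 CPM against 54.9, 57.9 and 64.6 CPM (log2 fold change 1.09). Cnr1, the CB1 cannabinoid receptor, was lower, with 64.6, 73.8 and 110 CPM in Hpse Pdyn cells against 171, 261 and 260 CPM (log2 fold change -1.42). In the GFP+/tdTomato+ library both groups had about the same Cnr1 level, 44.7 and 44.3 CPM. Sstr1, a somatostatin receptor, was lower (4.97, 5.09 and 0 CPM against 33.0, 43.7 and 56.6 CPM).

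Transcription factors and adhesion genes separated the groups in both directions. Of 30 factors tested, 8 were higher and 10 lower (median -0.05). Maf, a bZIP factor of SST and parvalbumin interneuron development, was at 1176, 905 and 1027 CPM in tdTomato+ Hpse Pdyn cells, against 388, 422 and 380 CPM in the others (log2 fold change 1.43, SE 0.10, adjusted p = 3.95e-14 from edgeR), and a Maf UMI was seen in 98.8% of Hpse Pdyn cells and 66.6% of the others. Tox, an HMG-box factor, was at 210, 219 and 236 CPM against 68.4, 80.5 and 70.04 CPM (log2 fold change 1.65). Etv1, an ETS factor that marks layer 5 pyramidal cells and some SST groups, gave no UMI in 163 tdTomato+ Hpse Pdyn cells and 3 in the GFP+/tdTomato+ ones, against 139, 46.0 and 52.7 CPM in other tdTomato+ barcodes. By the limit that a count of 0 allows it was at least 44.4-fold lower, and at least 13.8-fold lower without the P97 library. Nr2f2, known as COUP-TFII, gave 2 UMIs in the tdTomato+ Hpse Pdyn cells, 0.0159 times the level of the others (exact interval 0.00192 to 0.0576). In the GFP+/tdTomato+ library Nr2f2 was at 0.526 CPM in Hpse Pdyn cells and 3.88 CPM in the others, and Etv1 at 1.58 and 28.0 CPM. The 38 tdTomato+ barcodes with Hpse and under 3 Pdyn UMIs also gave no Etv1 UMI.

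Of 33 adhesion and guidance genes tested 10 were higher and 11 lower, and of 20 cadherins and protocadherins 4 were higher and 7 lower. Clstn2, a calsyntenin of the postsynaptic membrane, was at 270, 242 and 229 CPM in tdTomato+ Hpse Pdyn cells against 54.9, 47.6 and 71.6 CPM in the others (log2 fold change 2.15, SE 0.13, adjusted p = 5.51e-16 from edgeR). Col11a1, a fibrillar collagen chain, was at 104, 63.6 and 60.7 CPM against 20.4, 22.3 and 19.1 CPM, and Pcdh11x, a protocadherin, at 261, 280 and 317 CPM against 164, 150 and 172 CPM. In the GFP+/tdTomato+ library Col11a1 was at 93.0 CPM in Hpse Pdyn cells and 52.1 CPM in the others, and Pcdh11x at 187 and 165 CPM. Ptprt, a homophilic receptor tyrosine phosphatase, was at 3.73, 10.2 and 11.2 CPM in Hpse Pdyn cells and 308, 248 and 282 CPM in the others (log2 fold change -5.23, SE 0.23, adjusted p = 1.71e-19 from edgeR, and -4.60 without the P97 library). Spon1, F-spondin, was at 9.94, 2.54 and 2.25 CPM against 225, 132 and 152 CPM (log2 fold change -4.86, and -5.84 without the P97 library). The protocadherins Pcdh17 (57.2, 127 and 42.7 CPM against 301, 208 and 156 CPM) and Pcdh8 (23.6, 58.5 and 17.97 CPM against 88.1, 118 and 89.4 CPM) were lower.

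The remaining genes with the largest rise were Car4, Aldoc and Rerg. Car4, a membrane-bound carbonic anhydrase, was at 65.9, 56.0 and 58.4 CPM in tdTomato+ Hpse Pdyn cells and 10.8, 8.91 and 6.20 CPM in other SST barcodes (log2 fold change 2.82, SE 0.24). Aldoc, a glycolytic aldolase that is also abundant in astrocytes, was at 96.96, 78.8 and 40.4 CPM against 22.7, 22.6 and 4.14 CPM (log2 fold change 2.20, SE 0.21). The astrocyte markers Gja1, Slc1a3 and Gfap were at 0 in Hpse Pdyn cells of all 4 libraries, and the summed astrocyte list was at 1.24, 5.09 and 4.49 CPM against 22.7, 20.3 and 11.9 CPM. Rerg, a Ras-related GTPase, was at 102, 109 and 112 CPM against 21.9, 24.2 and 28.7 CPM (log2 fold change 2.16, SE 0.16).

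Among the genes with the largest fall, Kit (a receptor tyrosine kinase, 1 UMI), Rprml (2 UMIs) and St8sia4 (a polysialyltransferase, 2 UMIs) were nearly absent from tdTomato+ Hpse Pdyn cells. Their levels there were 0.0110 (exact interval 0.000278 to 0.0616), 0.0157 (0.00190 to 0.0568) and 0.0193 (0.00233 to 0.0699) times those of other SST barcodes. Low levels were not confined to Hpse Pdyn cells. The other SST barcodes of the GFP+/tdTomato+ library had 4.66 CPM of Kit, 13.2 CPM of Rprml and 19.4 CPM of St8sia4. Summed over the tdTomato+ libraries the others had 55.3 CPM of Kit, 77.6 CPM of Rprml and 63.1 CPM of St8sia4. Fxyd6, a regulator of the sodium pump, was at 6.22, 7.63 and 2.25 CPM against 149, 395 and 185 CPM (log2 fold change -5.26, SE 0.25, and -5.85 without the P97 library), and St6galnac5, a ganglioside sialyltransferase, at 4.97, 0 and 2.25 CPM against 109, 110 and 111 CPM (log2 fold change -5.11, SE 0.33, and -6.44 without the P97 library). In the GFP+/tdTomato+ library Fxyd6 was at 0 CPM in Hpse Pdyn cells and 12.4 CPM in the others, and St6galnac5 at 1.58 and 37.3 CPM. Of 19 markers of other SST groups tested, 15 were lower and 2 higher. Olfm3, an olfactomedin, was one of the higher ones (205, 481 and 323 CPM against 76.1, 179 and 117 CPM, log2 fold change 1.48). The Olfm3 gap was narrow in the GFP+/tdTomato+ library, with 139 CPM in Hpse Pdyn cells and 126 CPM in the others. Mgat4c, a glycosyltransferase gene, was lower (55.9, 40.7 and 40.4 CPM against 357, 377 and 437 CPM, log2 fold change -2.97).

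Cldn11, Mal and Ptgds, all abundant in oligodendrocytes, were also among the 12 genes with the largest fall, and all 4 oligodendrocyte markers listed were called lower. Mbp, myelin basic protein, was at 14.9, 38.2 and 31.5 CPM in tdTomato+ Hpse Pdyn cells, against 113, 124 and 129 CPM in other SST barcodes, yet it was seen in 17.8% of Hpse Pdyn cells and 16.7% of the others. The summed level of the oligodendrocyte markers listed was 28.6, 45.8 and 38.2 CPM in Hpse Pdyn cells, against 1127, 1061 and 1066 CPM in the others. Only 5, 3 and 4 of the other barcodes held at least 10 UMIs of these markers, and they carried 96.7%, 95.7% and 96.7% of all such UMIs among the others. In an alternative added after seeing the data, leaving such barcodes out of both groups gave a log2 fold change of -0.43 for Mbp (adjusted p = 0.406 from edgeR), and Cldn11, Mal, Ptgds, Mobp and Mog had too few UMIs to be tested. The total of called genes was then 1177, against 1199 with these barcodes. The fall of the oligodendrocyte genes thus rests on a few barcodes among the others.

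Excitatory markers were low in both groups. Their summed level was 3.73, 0 and 4.49 CPM in tdTomato+ Hpse Pdyn cells and 27.6, 34.0 and 22.5 CPM in other SST barcodes, and 5.78 and 139 CPM in the GFP+/tdTomato+ library. No Hpse Pdyn cell held 3 or more Slc17a7 UMIs. Slc17a7, the vesicular glutamate transporter, gave 3 UMIs in tdTomato+ Hpse Pdyn cells, 0.156 times the level of the others (exact interval 0.0317 to 0.465). Leaving out barcodes with at least 3 Slc17a7 UMIs gave 1197 called genes. Microglia markers were at 0 in all Hpse Pdyn cells, and so were Vip and Lamp5, which mark other interneurons. The part of other cell types' RNA in the remaining differences was not tested.

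Immediate early genes, which neurons switch on after activity and also during dissociation, gave 2 higher and 7 lower of 13 tested, with a median of -0.95. Fos was at 12.4, 25.4 and 22.5 CPM in tdTomato+ Hpse Pdyn cells, against 51.5, 95.8 and 44.97 CPM in the others (log2 fold change -1.67, SE 0.24, adjusted p = 1.27e-06 from edgeR), and Jun at 9.94, 15.3 and 15.7 CPM against 31.8, 72.4 and 46.3 CPM (log2 fold change -1.79). Egr1, another early gene, was higher in each library (173, 287 and 193 CPM against 125, 198 and 101.3 CPM, log2 fold change 0.66), with overlapping groups. In the GFP+/tdTomato+ library the Jun levels were 14.2 and 13.2 CPM, and the Egr1 levels 171 and 166 CPM. Within 5000 to 15000 UMIs, 1 of 10 tested genes of this list was higher and 4 were lower.

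The reporters were read as transcripts too. GFP was at 597 CPM in GFP+/tdTomato+ Hpse Pdyn cells and 501, 417 and 411 CPM in tdTomato+ ones, against 425 CPM in GFP+/tdTomato+ other barcodes and 316, 334 and 323 CPM in tdTomato+ ones (log2 fold change 0.50, SE 0.10, adjusted p = 0.000399 from edgeR over the tdTomato+ libraries). Without the P97 library the call was lost (adjusted p = 0.0788). Such a level was not confined to Hpse Pdyn cells, which averaged 443 ± 50.2 CPM over the tdTomato+ libraries (SD, n = 3 libraries). Other barcodes with at least 3 Pdyn UMIs and no Hpse UMI averaged 446 ± 33.2 CPM. With Hpse and under 3 Pdyn UMIs the mean was 518 ± 44.6 CPM, and with no Hpse and under 3 Pdyn UMIs 279 ± 17.0 CPM. Those that met both sides but were left out by Calb2 or by Nos1 and Chodl averaged 747 ± 44.5 CPM. The excitatory-like barcodes, which should not express a Gad1 transgene, had 317, 26.7 and 245 CPM of GFP, a background that varied between libraries. The tdTomato transcript was at 982, 1796 and 2076 CPM in tdTomato+ Hpse Pdyn cells and 925, 1423 and 1451 CPM in the others (adjusted p = 0.00586), and without P45 replicate 1 or 2 it no longer passed (adjusted p = 0.120 and 0.139).

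The other SST barcodes include cells that met only one side of the rule. In the tdTomato+ libraries 311 had at least 3 Pdyn UMIs and no Hpse UMI (Pdyn alone below), and 38 had Hpse and under 3 Pdyn UMIs (Hpse alone). Another 1337 had no Hpse UMI and under 3 Pdyn UMIs (neither). The last 16 met both sides and were left out by Calb2 or by Nos1 and Chodl. These names stand for the limits of the rule and not for absence of Pdyn, which averaged 114 CPM with Hpse alone and 43.9 CPM with neither. Npnt averaged 279 ± 20.2 CPM in Hpse Pdyn cells, 81.5 ± 17.0 CPM in cells with Pdyn alone, 110 ± 30.7 CPM in cells with Hpse alone and 22.8 ± 6.25 CPM in cells with neither (SD, n = 3 libraries). Ifit1 was at 95.5 ± 4.33 CPM in Hpse Pdyn cells, 31.6 ± 3.82 CPM with Pdyn alone, 21.4 ± 18.2 CPM with Hpse alone and 6.90 ± 0.952 CPM with neither. For both genes the cells that met one side of the rule lay between the other groups. Calb1 was at 115 ± 64.2 CPM in Hpse Pdyn cells, 682 ± 135 CPM with Pdyn alone, 522 ± 209 CPM with Hpse alone and 813 ± 39.1 CPM with neither. Npy was at 612 ± 297 CPM in Hpse Pdyn cells, 1593 ± 159 CPM with Pdyn alone, 4054 ± 2048 CPM with Hpse alone and 7524 ± 4465 CPM with neither, and Ptprt at 8.38 ± 4.06, 98.0 ± 25.6, 120 ± 18.4 and 334 ± 38.7 CPM in the same order of groups.

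**Figure D4:**
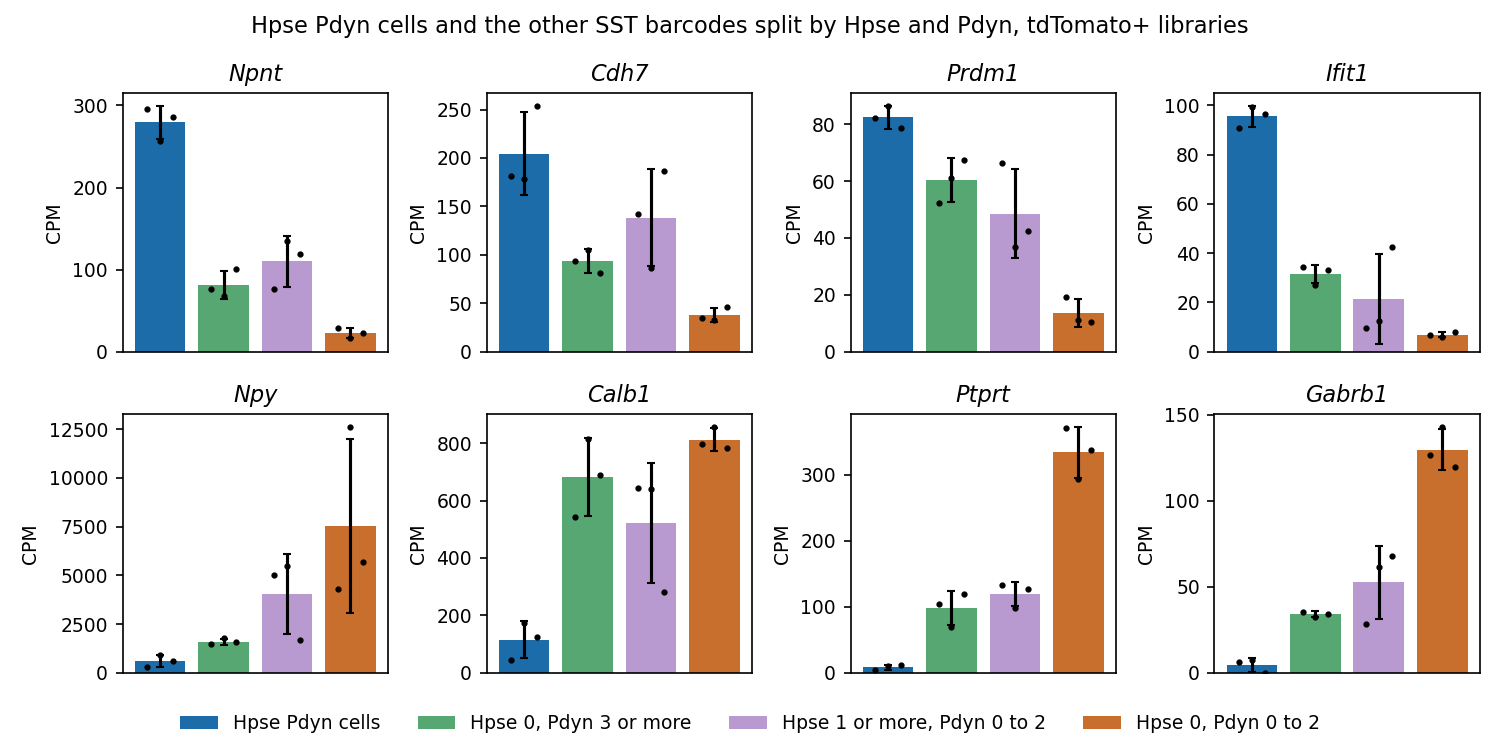
Mean CPM with SD (bars) and library values (points) over the 3 tdTomato+ libraries, for Hpse Pdyn cells and for other SST barcodes split by their Hpse and Pdyn UMIs. Npnt is at 279 CPM in Hpse Pdyn cells and at 22.8 CPM in barcodes with no Hpse UMI and under 3 Pdyn UMIs. The barcodes that met one side of the rule lie between.

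Within the tdTomato+ Hpse Pdyn cells, Npnt averaged 298 ± 56.2 CPM in those with at least 2 Hpse UMIs and 269 ± 108 CPM in those with exactly 1. Its direction differed between libraries, with 301, 352 and 240 CPM against 285, 154 and 369 CPM. Among GFP+/tdTomato+ cells Npnt was at 255 against 151 CPM. Cdh7 averaged 215 ± 36.3 and 187 ± 53.0 CPM, with 198, 191 and 257 CPM against 150, 164 and 248 CPM. Among GFP+/tdTomato+ cells it was at 241 against 179 CPM. Ifit1 was at 117 ± 18.9 CPM in cells with at least 2 Hpse UMIs and 65.6 ± 8.46 CPM in cells with 1. Calb1 was at 67.8 ± 44.7 CPM in the first and 188 ± 98.1 CPM in the second. Within each library it was lower in the cells with at least 2 Hpse UMIs, at 30.5, 117 and 55.6 CPM, against 74.9, 233 and 254 CPM in the cells with 1, and at 24.8 against 41.3 CPM among GFP+/tdTomato+ cells. These differences were not tested.

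To describe how Hpse Pdyn cells vary among themselves, cells were thinned to 5000 UMIs and the variance of each gene over cells was divided by its mean, a ratio that is 1 for pure counting noise. Over 669 genes with a mean of at least 1 UMI in every library the median ratio was 1.13. Malat1, a nuclear noncoding RNA, varied most, with a ratio of 55.1 in the GFP+/tdTomato+ library and 31.9, 20.7 and 32.6 in the tdTomato+ libraries. Npy had 12.7 in the GFP+/tdTomato+ library and 4.18, 8.11 and 6.50 in the others, and Sst 8.29 with 4.24, 9.41 and 4.53. Pdyn had 2.71 with 4.75, 3.86 and 3.22, with the cells chosen on a minimum of it. Cells that passed the rule thus still differed in how much Npy and Sst they held.

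At P97 the same 6 mice gave Hpse Pdyn cells from both sorts, so the 105 GFP+/tdTomato+ cells can be set beside the 65 tdTomato+ cells, with 1 library each and no test. Of 5077 genes with at least 100 UMIs over both sums, the exact 95% interval of the ratio excluded 1 for 974 (19.2%), 452 higher and 522 lower in GFP+/tdTomato+ cells. This interval covers counting error only and leaves out the spread between cells and between libraries. The 974 genes are thus no count of differences between the sorts. Hpse differed by less than its interval (220 and 204 CPM, ratio 1.08, interval 0.8999 to 1.30), as did Prdm1 (75.2 and 82.0 CPM, ratio 0.916, interval 0.680 to 1.25). Npnt was at 239 CPM in GFP+/tdTomato+ and 296 CPM in tdTomato+ Hpse Pdyn cells. In that order Cdh7 was at 231 and 181 CPM and Pdyn at 1119 and 1333 CPM. Intervals for Npnt, Cdh7 and Pdyn are not given here. Sst was at 5685 CPM in GFP+/tdTomato+ and 3612 CPM in tdTomato+ Hpse Pdyn cells (ratio 1.57, interval 1.51 to 1.64), and Npy at 719 and 319 CPM (ratio 2.25, interval 1.97 to 2.58). Every cell in both sums was chosen on Hpse, Pdyn and Sst UMIs, so the values of these genes are a description. The likeness in Hpse is partly set by the rule.

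The ratios that stood out most were not confined to Hpse Pdyn cells. The highest was that of Pgk1, a glycolytic kinase, at 85.7 CPM in GFP+/tdTomato+ and 13.7 CPM in tdTomato+ Hpse Pdyn cells (ratio 6.27, interval 3.41 to 12.8), and the other SST barcodes had 86.2 and 7.88 CPM in the same libraries. Ratios were also high for Gm10116 (5.50), Ccdc85b (3.77) and Gm10053 (3.41), where the predicted genes Gm10116 and Gm10053 may share reads with near-identical copies. The lowest was that of Pcp4, a calmodulin regulator, at 86.2 CPM in GFP+/tdTomato+ and 214 CPM in tdTomato+ Hpse Pdyn cells (ratio 0.403, interval 0.324 to 0.502), with 109 and 827 CPM in the other barcodes, and 0.223 among cells of 5000 to 15000 UMIs. Vps8, a vesicle tethering subunit, was at 722 and 1775 CPM (ratio 0.407, interval 0.377 to 0.438), with 952 and 3274 CPM in the others. Among the 16 genes named by size of ratio, the other SST barcodes lay on the same side of 1 in 16. The libraries also differ in depth, and their part in these ratios was not tested.

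The age of the mice was compared through the difference between Hpse Pdyn cells and other SST barcodes within each tdTomato+ library, at P97 (1 library) minus P45 (2 libraries). Age cannot be told apart from the batch here. Of 10642 genes 2 passed the interaction test (0.0188%), 502 had an unadjusted p under 0.05, and DESeq2 called 0 with 8 under an unadjusted 0.05. Calb1, calbindin, on chromosome 4 (15881264 to 15908064), was at 46.0 CPM in Hpse Pdyn cells at P97 and 173 and 126 CPM at P45, against 745 CPM in other SST barcodes at P97 and 836 and 748 CPM at P45. Its gap was larger at P97 (log2 difference -1.56, SE 0.31, adjusted p = 0.00496 from edgeR). It was low at every age (log2 fold change -2.88, SE 0.16, adjusted p = 1.73e-16 over the tdTomato+ libraries). In the GFP+/tdTomato+ library it was at 27.3 CPM in Hpse Pdyn cells and 330 CPM in the others.

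In Hpse Pdyn cells a Calb1 UMI was seen in 16 of 65 cells at P97 and in 20 of 42 and 14 of 56 cells at P45, and the 3 cells with the most held 40.5%, 45.6% and 58.9% of the UMIs. Excitatory-like barcodes carried 86.8, 146 and 48.9 CPM of Calb1. At 5000 to 15000 UMIs the Calb1 difference between ages was -1.07 and not called (adjusted p = 0.546 from edgeR). Pnoc, which encodes the nociceptin precursor, was at 32.3 CPM in Hpse Pdyn cells at P97 and 22.9 and 20.2 CPM at P45, against 11.6 CPM in other SST barcodes at P97 and 49.0 and 38.3 CPM at P45 (log2 difference 2.52, SE 0.51, adjusted p = 0.00496). These Pnoc levels rest on 26, 9 and 9 UMIs in Hpse Pdyn cells.

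**Figure D5:**
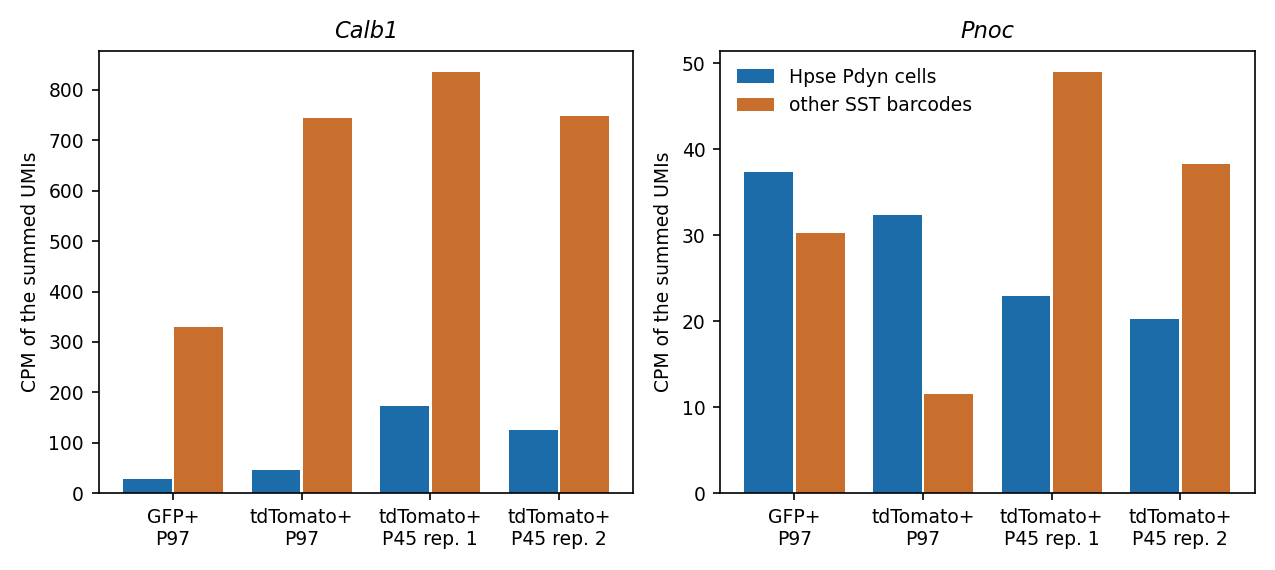
CPM of Calb1 (left) and Pnoc (right) in the summed UMIs of Hpse Pdyn cells and of other SST barcodes, by library. Calb1 is at 27.3 to 173 CPM in Hpse Pdyn cells and at 330 to 836 CPM in the others. Pnoc is higher in Hpse Pdyn cells at P97 and lower at P45.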

How the data were processed

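The authors sorted cells from somatosensory cortex, made Chromium Single Cell 3′ libraries and counted UMIs against GRCm38 with Cell Ranger 2.0.0, per the submitters' processing notes. No annotation release was named. The deposited values are raw UMI counts for 28000 features, tdTomato and GFP included. No doublet caller was run.

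Counts were summed per library over the Hpse Pdyn cells and the other SST barcodes. edgeR 4.0.16 (R 4.3.3; TMM, filterByExpr, quasi-likelihood) compared them across the 3 tdTomato+ libraries, with the library as a block because its 2 groups share mice. SE is the size of the log2 fold change over the square root of F. With 3 libraries, the p-values lean on a spread pooled over genes. DESeq2 1.42.0 was an alternative. The fit was tested on simulated data. Intervals are exact and at 95% (scipy 1.17.1), and cover counting error only. Coordinates are from GENCODE vM21 (GRCm38).

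The members and lists were chosen with earlier results of these data known. Named were the 12 genes with the largest fold change in each direction (adjusted p under 0.05, at least 50 CPM, same direction in 4 libraries, no mitochondrial or ribosomal protein genes) and up to 4 called genes per list by lowest p. Between sorts, the 8 highest and 8 lowest ratios were eligible. Genes from outside these rules (Gad1, Pvalb, Kcnc2, Oprk1 and Irf9) were chosen after their values were seen. Some genes that these rules name are not reported here.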

Additional observations from a re-analysis of the deposited data

Results flagged for a closer look

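The difference between Hpse Pdyn cells and other SST barcodes differed between P97 and P45 for Calb1 and Pnoc by a test of that difference itself. For Calb1 the log2 difference at P97 minus that at P45 was -1.56 (adjusted p = 0.00496 from edgeR's interaction term), and Calb1 was lower in Hpse Pdyn cells in 4 of 4 libraries. For Pnoc it was 2.52 (adjusted p = 0.00496), with Pnoc higher in Hpse Pdyn cells in both P97 libraries and lower in both P45 libraries. The 2 P97 libraries come from the same mice and dissociated tissue, so their shared direction is not that of separate batches. The fit holds 1 library at P97 and 2 at P45, so age cannot be told apart from the batch. The spread between P97 batches was not measured. DESeq2 called neither gene (adjusted p = 0.99999 for both).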

How the results depend on the processing

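With DESeq2, 541 genes were called between Hpse Pdyn cells and other SST barcodes and 0 for the difference between ages, and without the library block 628 were called, against 1199 and 2 in edgeR with the block. Leaving out 1 tdTomato+ library at a time gave 805 to 999. The interval of the ratio between sorts, which covers counting error only, excluded 1 for 419 of 1743 genes at 5000 to 15000 UMIs, against 974. The share of Hpse Pdyn cells was 7.56% in the GFP+/tdTomato+ library and 2.68%, 0.966% and 2.63% in the tdTomato+ libraries after thinning to 2000 UMIs, 46.2%, 6.69%, 2.999% and 5.27% with at least 2 Hpse UMIs, and 10.5% and 12.5% in the P45 libraries at 5000 to 15000 UMIs. RLE factors, no filter on low counts, all 4 libraries, the near-miss split and the stricter Hpse rule kept the number of called genes within 1.5 times. No named gene changed direction under any of these settings, while 11 lost their call with DESeq2 and 12 without the library block. The cause of these changes was not tested. Leaving out the P97 library or P45 replicate 2 took the call from 9 and 8 named genes. Low UMI counts limit genes such as Kit and Nr2f2 to wide intervals, and the P97 age and the GFP+ sort rest on 1 library each.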

Other observations

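Vps8, named for its ratio between the sorts, differed between the P97 and P45 libraries in both groups of cells. It was at 1775 CPM in tdTomato+ Hpse Pdyn cells at P97 and at 17.8 and 20.2 CPM at P45, and other SST barcodes had 3274 CPM at P97 and 19.5 and 23.3 CPM at P45. Pgk1 stood apart by sort in place of age, at 85.7 CPM in GFP+/tdTomato+ Hpse Pdyn cells and 13.7, 0 and 2.25 CPM in tdTomato+ ones, and its level in other SST barcodes was 86.2 CPM in the GFP+/tdTomato+ library and 7.88, 6.41 and 7.75 CPM in the tdTomato+ libraries. Both genes were singled out here after their values were seen.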
